A study of Mus musculus with 60 samples.

Results

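Fibrillar collagen genes were followed in mouse cancer-associated fibroblasts (CAFs) that had been cultured alone or with lung cancer cells. The set holds 8 genes, found by symbol among the 48440 genes listed in each of 3 count tables: Col1a1, Col1a2, Col3a1, Col5a1, Col5a2, Col5a3, Col11a1 and Col12a1. All 8 were present in every table, over 60 libraries in 8 groups. The fibroblasts are called tCAFs in the labels, which do not explain the prefix; strain and age are not given, and the titles of the aggregates of CAFs alone carry the tag GFP. In multicellular aggregates, where the cells touch, there were 3 replicates each of tCAFs alone, tCAFs with 393P cells, tCAFs with 344SQ cells, and tCAFs with 344SQ cells bearing either a control shRNA (344SQ_shCTL) or an shRNA named for ZEB1 (344SQ_shZEB1). In Boyden chambers, where a porous membrane parts the cells, there were 5 replicates each of tCAFs alone, with 393P and with 344SQ, and each replicate was sequenced as 3 technical libraries that were summed here. The 393P and 344SQ lines are mouse lung adenocarcinoma lines, known as poorly and highly metastatic. In all groups the CAFs were enriched by sorting before lysis, so the counts are those of the sorted fraction.

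Fibrillar collagens are the rope-like proteins that give connective tissue its strength, and fibroblasts are their main source. Each molecule is a triple helix of alpha chains. Col1a1 and Col1a2 encode the chains of type I collagen, the bulk of most fibrils, and a molecule usually holds a pair of alpha-1 chains and a single alpha-2 chain. Col3a1 encodes type III collagen, which lies beside type I in soft tissue, while types V and XI (Col5a1, Col5a2, Col5a3, Col11a1) sit in the fibril core and help to start fibrils and set their width. Col12a1 is a fibril-associated collagen, a molecule on the fibril surface and not a fibrillar collagen by class. The chains are hydroxylated and folded in the endoplasmic reticulum, trimmed outside the cell and crosslinked by the lysyl oxidase family, and transforming growth factor beta (TGF-beta) is a well-known inducer of their genes in fibroblasts.

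The upstream sequences of 4 members are shown, chosen among those with a RefSeq entry: Col5a3, Col5a1 and Col3a1 because they changed in the co-cultures, and Col11a1 because it was detected in every Boyden replicate but had few or no counts in the aggregates. Each run gives the 250 bases before the transcription start, 5′ to 3′ on the gene's own strand, from RefSeq on GRCm38.p6. Col5a3 is at chr9:20815068-20815317 on the minus strand, Col5a1 at chr2:27886175-27886424, Col3a1 at chr1:45311288-45311537 and Col11a1 at chr3:114030290-114030539, the last 3 on the plus strand. Capitals mark matches, on either strand, to the CCAAT box, the GC box GGGCGG, the TATA box TATAAA, the TEAD-like motif GGAATG and the AP-1-like motif TGANTCA, none of which overlapped another in these runs.
Col5a3: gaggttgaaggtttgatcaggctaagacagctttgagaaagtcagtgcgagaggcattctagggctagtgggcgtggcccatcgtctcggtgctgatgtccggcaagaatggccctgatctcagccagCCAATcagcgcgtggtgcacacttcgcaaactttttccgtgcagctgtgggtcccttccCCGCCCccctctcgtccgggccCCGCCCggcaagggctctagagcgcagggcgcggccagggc
Col5a1: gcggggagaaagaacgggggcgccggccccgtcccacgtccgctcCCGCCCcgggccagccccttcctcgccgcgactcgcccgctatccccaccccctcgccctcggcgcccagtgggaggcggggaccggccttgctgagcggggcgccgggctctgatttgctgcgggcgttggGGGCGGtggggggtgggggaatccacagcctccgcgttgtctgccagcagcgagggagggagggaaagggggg
Col3a1: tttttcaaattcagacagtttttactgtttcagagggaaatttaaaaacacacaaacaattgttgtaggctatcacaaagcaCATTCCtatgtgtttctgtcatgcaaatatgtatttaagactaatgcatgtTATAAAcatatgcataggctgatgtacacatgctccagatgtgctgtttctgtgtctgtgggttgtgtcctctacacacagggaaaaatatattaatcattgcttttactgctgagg
Col11a1: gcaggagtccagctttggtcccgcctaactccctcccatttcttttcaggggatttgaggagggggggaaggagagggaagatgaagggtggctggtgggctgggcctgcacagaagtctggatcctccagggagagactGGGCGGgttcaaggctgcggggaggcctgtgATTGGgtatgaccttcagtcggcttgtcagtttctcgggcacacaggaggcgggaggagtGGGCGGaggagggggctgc
The 250 bases before Col3a1 had a G and C content of 35.2%, against 62.8% for Col5a3, 76.4% for Col5a1 and 62.4% for Col11a1, and a median of 52.4% over 32851 RefSeq windows of that length. Col3a1 held a TATAAA, 117 bases before the start, which 12.4% of all windows hold, and a GGAATG on the minus strand, which 12.6% hold. Col5a3, Col5a1 and Col11a1 each held 2 matches to GGGCGG, present in 32.7% of windows, and Col5a3 and Col11a1 each held 1 CCAAT, present in 33.8%. TGANTCA, present in 6.75% of windows, was in none of the 4 runs. These matches describe the letters only.

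Library totals were 757717 to 1258751 counts in the aggregate table, 739530 to 2144803 in the shRNA table and 4182944 to 8542262 in the Boyden sums, with the 344SQ Boyden group the shallowest. rRNA-like genes took 18.1% to 25.8% of counts in the aggregates of both tables and 0.284% to 0.497% in the Boyden sums. Fibroblast markers were well above 0 in every group (Pdgfrb had at least 302 counts in each aggregate library of the main table and 716 in each Boyden sum), but Lum, a fibroblast proteoglycan gene on the same list, had 0 to 3 counts in these aggregates and 0 to 11 in the Boyden sums. The 12 carcinoma markers summed to 5.07 to 9.24 CPM (counts scaled to library size) in aggregates of CAFs alone, 11.6 to 27.5 with 344SQ, 18.1 to 86.7 with 393P, 34.5 to 1477 in the shRNA table and 9.35 to 79.7 in the Boyden chamber. Of these, Epcam had at most 1 count in any aggregate library of the main table. The 6 mural cell markers summed to 92.1 to 269 CPM in the shRNA table and at most 4.35 CPM elsewhere. The labels call the replicates biological, but do not say whether they came from separate isolates, so p-values measure the spread between these samples. Single Boyden libraries differed no less within a replicate than between replicates of a group. Their chi-square per degree of freedom, near 1 for counting error alone, had a median of 7.08 over 45 pairs within replicates and 5.35 over 270 pairs between. Col1a1 in CAFs alone had 786 to 1511 CPM in single technical libraries, without TMM factors. SDs and p-values from the sums carry this spread only after averaging over the 3 technical libraries of each replicate. In bulk RNA, fewer cells of a type and less RNA per cell cannot be told apart.

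Levels of the members were compared with each other per kilobase of exon (the union of annotated exons), as CPM with TMM factors, the library scaling of edgeR. In aggregates of CAFs alone, Col3a1 stood at 143 ± 67.6 CPM per kb, Col1a1 at 141 ± 28.4 and Col1a2 at 105 ± 14.9 (SD, n = 3), and the replicate ranges of these neighbours overlapped. Col5a2 followed at 40.3 ± 9.09 and Col5a1 at 35.6 ± 1.65, also overlapping, then Col5a3 at 3.81 ± 0.597 and Col12a1 at 2.34 ± 1.60. Col11a1, a chain best known from cartilage, had 0 counts in all 3 of these libraries. A count of 0 allows up to 3 counts, or 2.52 to 3.87 CPM in these libraries, for counting error only. The order in the Boyden chamber was different. Col1a2 led in CAFs alone at 321 ± 18.5 CPM per kb (SD, n = 5), followed without overlap by Col1a1 at 156 ± 7.05, Col3a1 at 109 ± 9.94, Col5a2 at 90.9 ± 6.40, Col5a1 at 48.1 ± 1.77 and Col12a1 at 31.3 ± 2.11, while Col5a3 at 1.16 ± 0.201 and Col11a1 at 1.10 ± 0.188 overlapped. Col1a2 also led in both Boyden co-cultures. With the length of the longest basic transcript in place of the exon union, a choice added after seeing the data, Col1a2 kept the lead in all 3 Boyden groups, took it from Col1a1 in both shRNA groups, and moved from rank 3 to rank 2 in aggregates of CAFs alone and with 344SQ. In Boyden CAFs alone Col3a1 then stood at 192 CPM per kb, above Col1a1 at 173 with overlap, and Col5a1 and Col12a1 overlapped too, so the order below Col1a2 depends on the length used. Tables were scaled separately, and culture format and library batch cannot be told apart, so the levels across tables stand side by side without a test.

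The first comparison asked how CAFs changed when they were aggregated with 393P cells. Of the 7 members tested, 4 rose and none fell: the type I chain gene Col1a1 and all 3 type V chain genes. Here 10.7% of all 7992 genes tested were called (edgeR quasi-likelihood test, Benjamini-Hochberg adjusted p under 0.05), 5.41% as higher and 5.27% as lower. Col11a1 did not pass the filter on low counts, with 0, 3 and 3 counts in the 393P libraries. The median log2 change of the 7 members was 0.73, against 0.00 over all genes tested.

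Col5a3, the least common of the type V chains and the first of the upstream sequences above (ENSMUSG00000004098.7, chromosome 9, 20770050 to 20815067), had 22.4, 30.4 and 25.1 CPM in CAFs alone and 259.9, 208 and 221 CPM with 393P. All 3 libraries with 393P were far above all 3 without. Its log2 change was 3.16 ± 0.22 (SE), an 8.94-fold rise (edgeR adjusted p = 9.62e-12).

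Col1a1 (ENSMUSG00000001506.10, chromosome 11, 94936224 to 94953042) had 1122, 905 and 751 CPM in CAFs alone and 1666, 1361 and 2069.7 CPM with 393P. The groups did not overlap, and the log2 change was 0.87 ± 0.17 (edgeR adjusted p = 0.000573). Its partner chain Col1a2 (ENSMUSG00000029661.16, chromosome 6, 4504814 to 4541544) had 1509, 1230.5 and 1159 CPM alone and 1265, 1162 and 1586 CPM with 393P. These values overlapped, and Col1a2 was not called, with a log2 change of 0.04 ± 0.16 (edgeR adjusted p = 0.933).

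Col5a1, the chain found in most type V molecules (ENSMUSG00000026837.15, chromosome 2, 27886425 to 28039514), had 312, 309 and 286 CPM alone and 448, 485 and 578 CPM with 393P. It rose by 0.73 ± 0.15 on the log2 scale (edgeR adjusted p = 0.000923) with no overlap. Its exons share 99 and 113 bases with 2 transcripts on the opposite strand, and the strand setting of the counting is not given, so a part of its counts is uncertain. Col5a2, the other common type V chain (ENSMUSG00000026042.16, chromosome 1, 45374321 to 45503282), had 485, 354 and 319.9 CPM alone and 762, 656 and 726 CPM with 393P. It rose by 0.88 ± 0.16 (edgeR adjusted p = 0.00021), again without overlap.

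Col3a1 (ENSMUSG00000026043.18, chromosome 1, 45311538 to 45349706) had 2143, 1225 and 854 CPM in CAFs alone and 1845, 1346 and 2233 CPM with 393P. The first library of CAFs alone was above 2 of the 3 with 393P, and Col3a1 was not called at a log2 change of 0.36 ± 0.22 (edgeR adjusted p = 0.379). Without that library it was called, at 0.79 (edgeR adjusted p = 0.0106). The exons of Col3a1 share 141 bases with a microRNA gene, Gm47302, on the same strand, so a part of its counts is uncertain. Col12a1 (ENSMUSG00000032332.17, chromosome 9, 79598991 to 79718831) was low and scattered, at 43.1, 55.5 and 8.36 CPM alone and 55.4, 28.5 and 14.6 CPM with 393P, with no call. In all, 4 of the 7 members tested had CPM ranges that did not overlap between the groups, as did 26% of all genes tested.

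The 12 carcinoma markers were also higher with 393P, as given above, with Krt8 at 1 to 39 counts and Epcam at 0 or 1. With the log2 sum of these markers as a covariate, 1 of the 4 members was still called, Col5a3 at 3.30 (edgeR adjusted p = 7.71e-08). The values of Col1a1, Col5a1 and Col5a2 were then 0.44, 0.45 and 0.78, with adjusted p-values of 0.533, 0.478 and 0.114. The marker sums of CAFs alone and with 393P did not overlap, so covariate and group cannot be told apart here. A kept or lost call therefore does not settle the part of carcinoma RNA in these changes, which was not tested further. Summed fibroblast markers were 2667 to 3567 CPM with 393P and 1300 to 1835 CPM alone, but the list went both ways: of 7 markers tested 3 were higher (Pdgfrb, Thy1 and Fap) and 2 lower (Pdgfra and Dcn). Pdgfrb had the largest difference in CPM, at 348 to 399 CPM alone and 1257 to 1913 CPM with 393P, while Pdgfra had 359 to 718 CPM alone and at most 141 CPM with 393P.

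**Figure D1:**
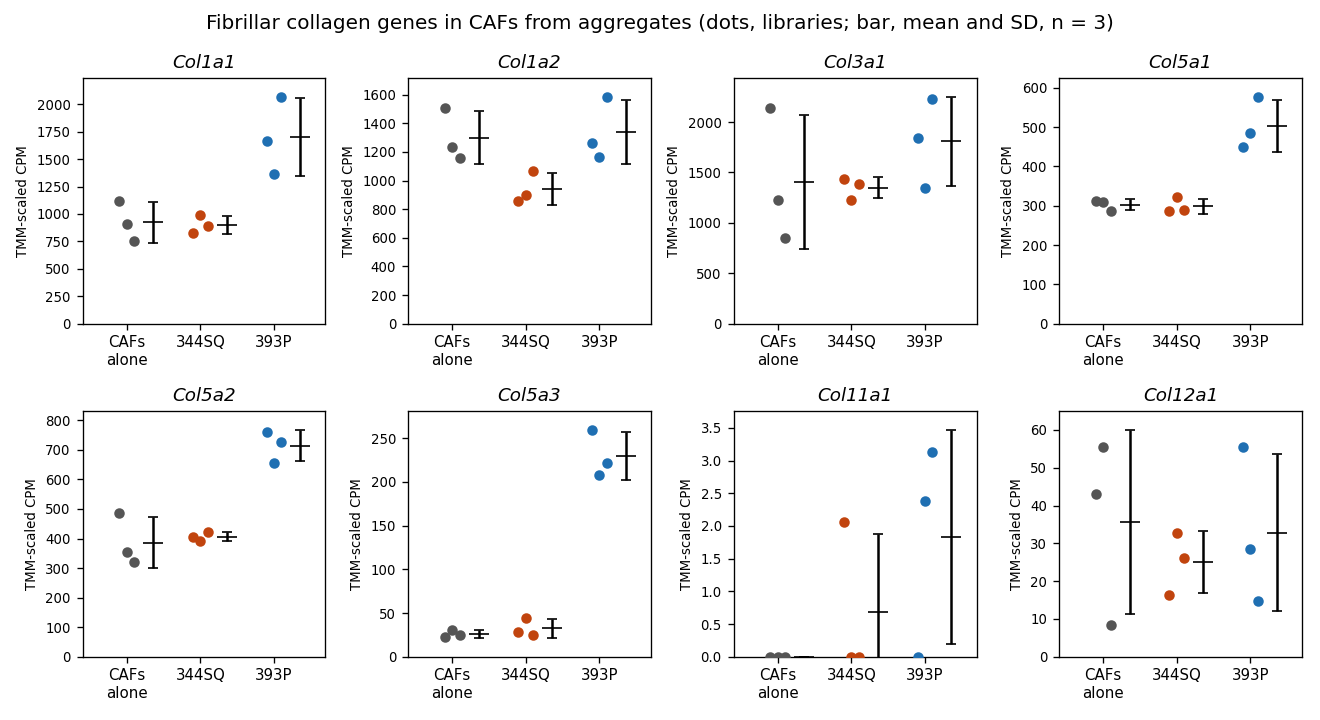
TMM-scaled CPM (linear axis from 0, a separate scale for each gene) of the 8 collagen genes in each aggregate library, by group; dots are libraries, and the bar to the right of them is the mean with its SD (n = 3). With 393P, Col5a3 lies between 208 and 259.9 CPM and at most at 44.9 CPM in CAFs alone and with 344SQ, while Col1a2 and Col3a1 overlap with CAFs alone.

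With 344SQ cells in the aggregates, no member was called in either direction, where 5.84% of all genes tested were, 3.48% as higher and 2.36% as lower (edgeR adjusted p under 0.05). By unadjusted p under 0.05, 1 of the 7 members and 1273 of 7992 genes passed, and DESeq2 also called no member. That member was Col1a2, with 859, 897 and 1065 CPM against 1509, 1230.5 and 1159 CPM in CAFs alone. The groups did not overlap, which held for 1 of 7 members and 21.5% of all genes tested, and the log2 change was -0.47 ± 0.16 (edgeR p = 0.00743, adjusted p = 0.0939). With the carcinoma marker covariate Col1a2 was called, at -0.71 (edgeR adjusted p = 0.0368). The marker sums of these groups did not overlap either, so covariate and group cannot be told apart there. Col1a1 with 825, 987 and 895 CPM, Col5a1 with 287, 321 and 288 CPM and Col5a2 with 404, 393 and 423 CPM stood within the range of CAFs alone or close to it, with log2 changes of -0.04 ± 0.17, -0.02 ± 0.15 and 0.07 ± 0.16. Col5a3 had 27.8, 44.9 and 25.2 CPM, a log2 change of 0.32 ± 0.26 (edgeR adjusted p = 0.614). Over the 7 members the median was -0.04, against -0.01 over all genes.

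The lines were then set directly against each other. In aggregates with 344SQ, 4 of 7 members were lower than with 393P and none higher, where 4.15% of all genes were called, 1.94% as lower and 2.21% as higher (edgeR adjusted p under 0.05). They were Col5a3 at -2.84 ± 0.21, Col1a1 at -0.91 ± 0.17, Col5a2 at -0.81 ± 0.16 and Col5a1 at -0.75 ± 0.15 on the log2 scale, the same 4 genes that rose with 393P over CAFs alone; both comparisons use the same 393P libraries. With the carcinoma marker covariate all 4 were still called, at -2.90, -0.71, -0.77 and -0.62. Col1a2 was lower in all 3 libraries with 344SQ than in any with 393P, but its log2 difference of -0.51 ± 0.16 missed the threshold (edgeR adjusted p = 0.0811; DESeq2 called it, adjusted p = 0.0183). Ranges did not overlap for 5 of 7 members and for 17.9% of all genes.

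The shRNA aggregates asked whether lowering ZEB1, a driver of the mesenchymal state, in the 344SQ cells changed the CAFs. The libraries come from the sorted CAF fraction, which expresses Zeb1 and here holds a varying amount of carcinoma RNA, so Zeb1 counts do not check the knockdown. Zeb1 had 71.8, 105 and 50.3 CPM with shCTL and 144, 48.4 and 120 CPM with shZEB1. No member was called (edgeR), and neither was any other gene, 0% of 7801 tested; by unadjusted p under 0.05, 0 of 7 members and 466 genes passed, and DESeq2 called 26 genes but no member. Col1a1 had 599, 928 and 391 CPM with shCTL and 1277, 1045 and 637 CPM with shZEB1. The groups overlapped, at a log2 change of 0.62 ± 0.44 (edgeR adjusted p = 0.843). Col1a2 had 549, 963 and 250.5 CPM against 1063, 1185 and 785 CPM, a log2 change of 0.78 ± 0.48 (edgeR adjusted p = 0.823). The biological coefficient of variation was 61.7% in this table, against 16.2% in the aggregate table, and shCTL replicate 3 was the lowest of its group for 6 of the 7 members tested. Carcinoma markers summed to 51.7, 39.4 and 1477 CPM with shCTL and to 34.5, 938 and 533 CPM with shZEB1, and their part was not tested beyond the covariate, with which no member was called either. Col3a1 stood at 283 ± 106 CPM with shCTL and 271 ± 88.1 CPM with shZEB1 (SD, n = 3), against 1350.5 ± 108 CPM with 344SQ in the main aggregate table. These tables were scaled separately and differ in mural markers, as given above.

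Across a membrane the called members were lower, not higher. With 393P cells in the Boyden chamber, 5 of the 8 members fell and none rose, where 15.6% of all 14040 genes tested were called, 7.96% as lower and 7.68% as higher (edgeR adjusted p under 0.05). Col3a1 had 1002, 1157, 1006, 994 and 1196 CPM in CAFs alone and 718, 686, 689, 679 and 741 CPM with 393P. All 5 replicates with 393P, as sums, were lower, a log2 change of -0.61 ± 0.07 (edgeR adjusted p = 1.97e-06). Single technical libraries overlapped, at 548 to 844 CPM with 393P and 775 to 1272 CPM alone (without TMM factors). Col12a1 had 451, 527, 482, 447 and 476 CPM alone and 343, 371, 347, 317 and 304 CPM with 393P, with no overlap and a log2 change of -0.50 ± 0.07 (edgeR adjusted p = 3.24e-05). Col1a1 had 1095, 969.5, 1024, 1004 and 1036 CPM alone and 793, 745, 752, 755 and 760.2 CPM with 393P. It fell by 0.43 ± 0.06 on the log2 scale (edgeR adjusted p = 1.85e-05). Col5a1 changed by -0.30 ± 0.06 and Col1a2 by -0.22 ± 0.05, and the ranges of the sums for these 5 genes did not overlap, as for 12.4% of all genes tested.

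Col5a2 and Col5a3, which rose with 393P in aggregates, were not called across the membrane. Col5a3 was low, at 5.96, 7.40, 7.80, 8.64 and 9.61 CPM alone and 9.22, 7.04, 5.06, 5.78 and 4.35 CPM with 393P (30 to 77 counts each). These overlapped, at a log2 change of -0.33 ± 0.18 (edgeR adjusted p = 0.236). Col11a1 (ENSMUSG00000027966, chromosome 3, 114030540 to 114220718) had 11.3 to 17.0 CPM alone and 13.9 to 19.7 CPM with 393P, with no call. The median over the 8 members was -0.31, against 0.00 over all genes tested.

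With 344SQ across the membrane 5 of 8 members fell and none rose, where 14.9% of all genes were called, 7.44% as lower and 7.43% as higher (edgeR adjusted p under 0.05). Col3a1 had 645, 485, 612, 539 and 598 CPM with 344SQ, below the lowest value of CAFs alone by a wide margin. Its log2 change was -0.90 ± 0.07 (edgeR adjusted p = 8.94e-10), a level 0.538 times that of CAFs alone. Col5a1 with 313, 281, 321, 319 and 335 CPM fell by 0.38 ± 0.06 and Col1a2 with 3339.7, 3218, 3326, 3118 and 3178 CPM fell by 0.30 ± 0.05 on the log2 scale. Col1a1 with 883, 934, 779, 777 and 919 CPM fell by 0.26 ± 0.06 (edgeR adjusted p = 0.00371). Col12a1 had 469.6, 381, 417, 348 and 389 CPM, so that 1 replicate lay within the range of CAFs alone, and fell by 0.25 ± 0.07 (edgeR adjusted p = 0.0196). Its adjusted p was 0.0534 without CAFs-alone replicate 2 and 0.0596 without 344SQ replicate 4. Ranges did not overlap for 4 of 8 members and 9.93% of all genes. Both Boyden comparisons share the 5 replicates of CAFs alone. From the first technical library of each replicate alone, 3 members were called with 393P and 2 with 344SQ, all lower, where 609 and 500 genes were called in place of 2195 and 2087.

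Between the lines, in the Boyden chamber, Col3a1 was lower with 344SQ than with 393P by 0.29 ± 0.07 on the log2 scale (edgeR adjusted p = 0.0189), and Col12a1 was higher by 0.25 ± 0.07 (edgeR adjusted p = 0.0482). These were 2 of 8 members, where 3.88% of all genes were called, 2.52% as higher and 1.36% as lower. The call of Col12a1 was lost in a fit of these 2 groups only (edgeR adjusted p = 0.0556) and without any one of 344SQ replicates 1, 3 and 5 or 393P replicates 1, 3, 4 and 5 (edgeR adjusted p from 0.0579 to 0.202). That of Col3a1 was lost without 393P replicate 5 (edgeR adjusted p = 0.0612). Col1a1 was called as higher without 344SQ replicate 4 (0.20, edgeR adjusted p = 0.0476) and Col5a3 without 393P replicate 1 (0.77, edgeR adjusted p = 0.0165). Col3a1 ranges did not overlap, in common with 4.46% of all genes tested.

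**Figure D2:**
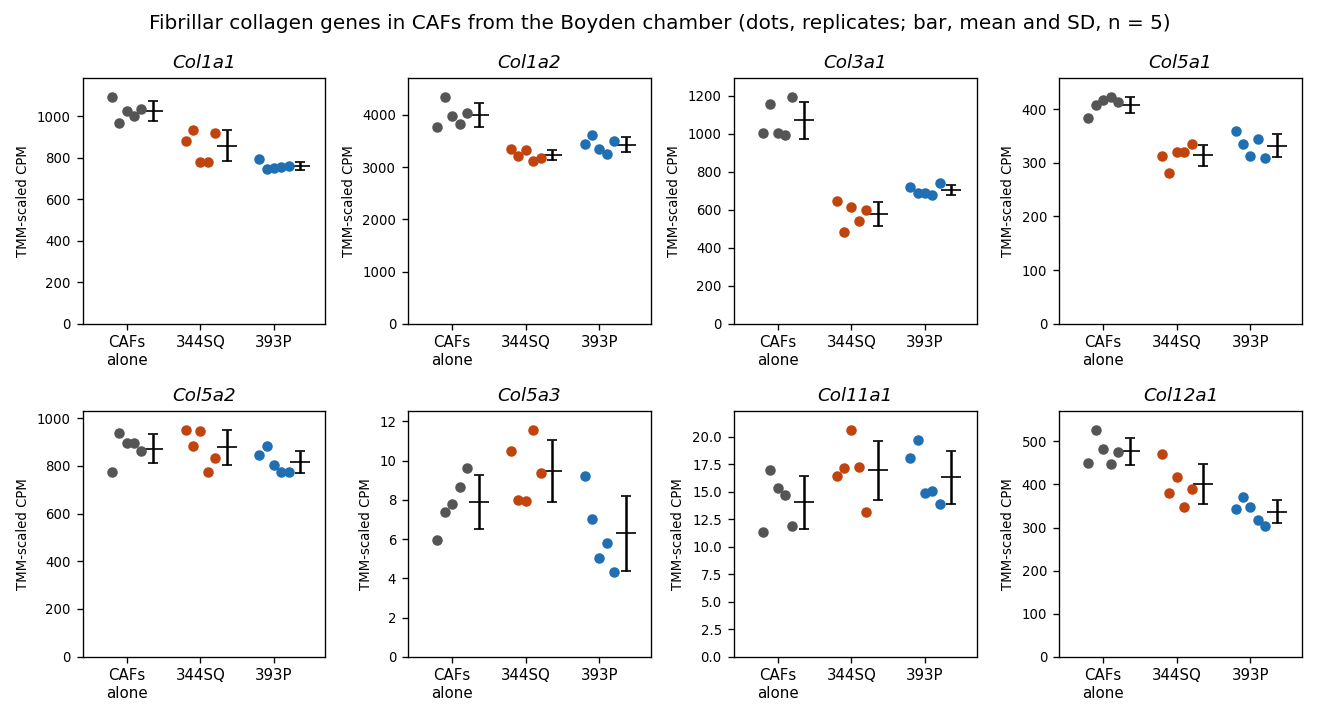
TMM-scaled CPM (linear axis from 0, a separate scale for each gene) of the 8 collagen genes in each Boyden replicate, by group; dots are replicates summed over technical libraries, and the bar is the mean with its SD (n = 5). Col3a1 lies between 485 and 645 CPM with 344SQ and between 994 and 1196 CPM in CAFs alone, while Col5a2 overlaps in all 3 groups.

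A joint fit of the aggregate and Boyden tables tested whether each line's effect differed between the formats, each format having its own CAFs alone. For 393P, 5 of the 8 members had a higher log2 change in aggregates than across the membrane and none a lower one, where 8.98% of 15193 genes were called, 5.32% in that direction and 3.66% in the other (edgeR adjusted p under 0.05). The differences were 3.57 ± 0.27 for Col5a3, 1.37 ± 0.15 for Col1a1, 1.10 ± 0.13 for Col5a1, 1.04 ± 0.15 for Col5a2 and 1.02 ± 0.21 for Col3a1 on the log2 scale. Col1a2 differed by 0.33 ± 0.14 (edgeR adjusted p = 0.16; called at 0.47, adjusted p = 0.0287, without replicate 1 of CAFs alone in aggregates) and Col12a1 by 0.50 ± 0.35 (edgeR adjusted p = 0.456). No value is given for Col11a1, which had no counts in the aggregates of CAFs alone. With the carcinoma marker covariate the same 5 members were called, at 0.84 to 3.40. In the aggregates the marker sums of CAFs alone and with 393P did not overlap. These kept calls therefore do not settle the part of carcinoma RNA. For 344SQ, 1 member was called, Col3a1 at 0.87 ± 0.22 (edgeR adjusted p = 0.00848), where 4.73% of all genes were, 2.61% as higher and 2.13% as lower. That call was lost without replicate 2 or without replicate 3 of CAFs alone in aggregates (0.76 and 0.61, edgeR adjusted p = 0.051 and 0.0783). Format, depth, rRNA share and mitochondrial share differ together between the tables and cannot be told apart.

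**Figure D3:**
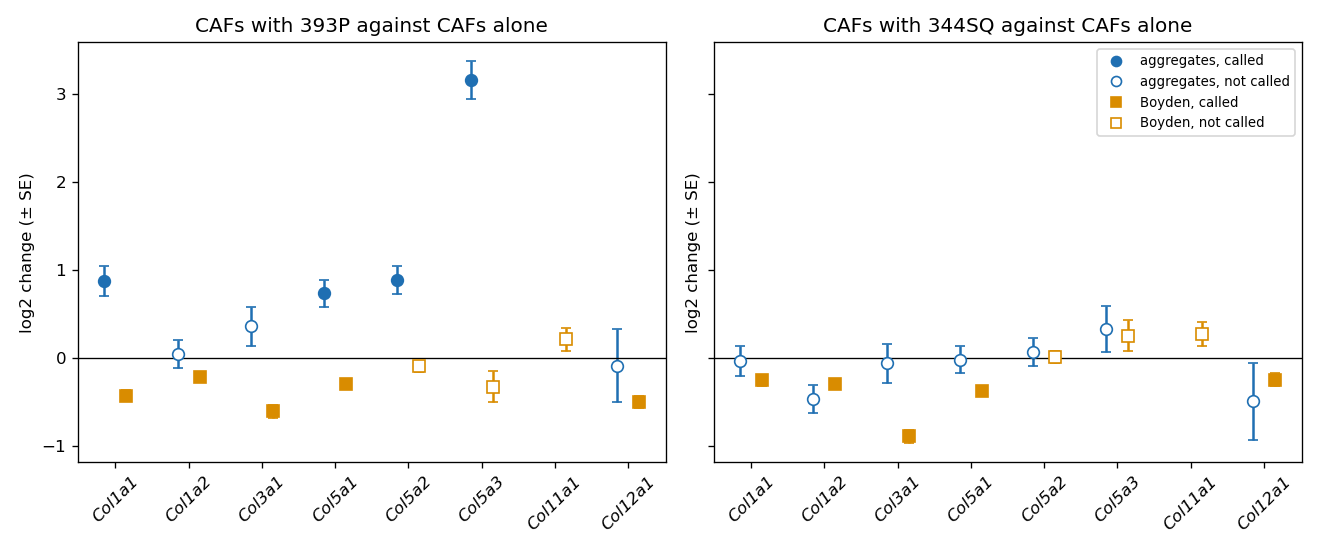
Log2 change with its SE (vertical axis) of each collagen gene in CAFs with 393P (left) or 344SQ (right) against CAFs alone, in aggregates (circles) and Boyden chambers (squares); filled marks passed the adjusted p threshold. Col5a3 stands at 3.16 in aggregates with 393P and at -0.33 across the membrane, and Col11a1 has no aggregate value.

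Ratios of counts of 2 genes within a library need no scaling, so they show how the chains moved against each other. In aggregates the Col1a1/Col1a2 count ratio was 0.744, 0.736 and 0.647 in CAFs alone, 0.960, 1.10 and 0.840 with 344SQ and 1.32, 1.17 and 1.31 with 393P. The 3 groups did not overlap, in that order. The log2 difference from CAFs alone was 0.84 with 393P and 0.44 with 344SQ, each with p = 0.1 in a 2-sided exact permutation test, the smallest that 3 against 3 libraries allow. In the Boyden chamber the ratio was 0.258 ± 0.0243 in CAFs alone, 0.265 ± 0.0245 with 344SQ and 0.222 ± 0.0108 with 393P (SD, n = 5). It was lower with 393P than with 344SQ in every replicate (log2 difference of 344SQ over 393P 0.25, exact permutation p = 0.00794, adjusted p = 0.0503). In the shRNA table it was 1.21 ± 0.314 with shCTL and 0.965 ± 0.208 with shZEB1 (SD, n = 3).

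The Col5a3/Col5a1 ratio was 0.0859 ± 0.0133 in aggregates of CAFs alone, 0.108 ± 0.0278 with 344SQ and 0.464 ± 0.103 with 393P (SD, n = 3). With 393P, Col5a3 thus rose beyond Col5a1 there by a log2 difference of 2.42 (exact permutation p = 0.1). Across the membrane it was 0.0192 ± 0.00287 alone, 0.0302 ± 0.00465 with 344SQ and 0.0187 ± 0.00463 with 393P (SD, n = 5). The value with 344SQ was above CAFs alone in every replicate, at a log2 difference of 0.65 (exact permutation p = 0.00794, adjusted p = 0.0503). The Col3a1/Col1a1 ratio in the Boyden chamber was 1.05 ± 0.12 alone and 0.676 ± 0.101 with 344SQ (log2 difference -0.64, exact permutation p = 0.00794, adjusted p = 0.0503), and Col5a2/Col5a1 went from 2.14 ± 0.103 to 2.81 ± 0.328 (0.39, with the same p-values). Over the 38 ratio comparisons none passed an adjusted p of 0.05, and 0.00794 is the smallest p that 5 against 5 allows. Col3a1/Col1a1 between the lines (-0.46) and Col11a1/Col5a1 with 393P (0.52) also reached it in the Boyden chamber.

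**Figure D4:**
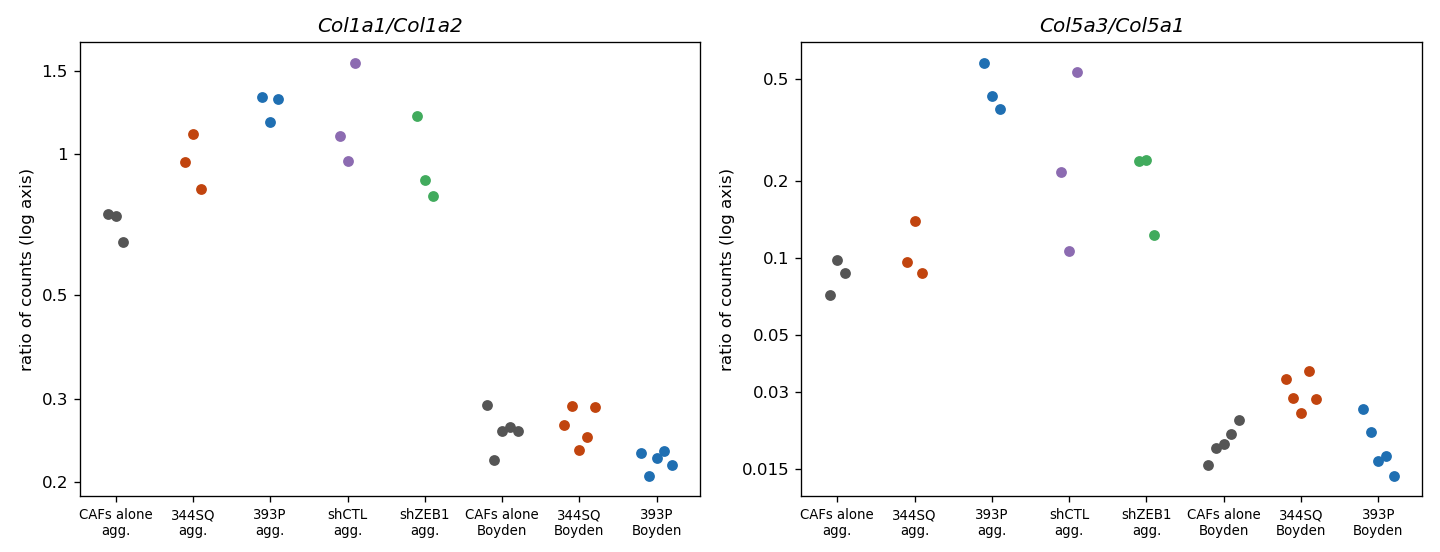
Ratio of the counts of Col1a1 to Col1a2 (left) and of Col5a3 to Col5a1 (right) in each library or Boyden replicate (log axis), by group; each dot is a library or a replicate. Col1a1/Col1a2 is 0.647 to 0.744 in aggregates of CAFs alone and 1.17 to 1.32 with 393P, and at most 0.291 in the Boyden chamber.

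Genes that act on collagens were read from lists of enzymes, partners and regulators. In aggregates with 393P, where 5.41% of all genes were higher and 5.27% lower, propeptide cleavage and crosslinking gave 6 higher and 1 lower of 10 tested, with a median log2 change of 0.76 against 0.00 over all genes. Tll1, a tolloid protease that trims procollagen, rose by 2.25 ± 0.33 on the log2 scale, the lysyl oxidase genes Loxl3 by 1.68 ± 0.25 and Loxl1 by 1.07 ± 0.17. Adamts2, the procollagen N-proteinase, rose from 113 ± 13.5 to 227 ± 34.5 CPM (SD, n = 3), while Lox, the founding crosslinking enzyme, fell from 86.0 ± 37.6 to 37.3 ± 10.2 CPM. Of 19 hydroxylation, folding and export genes tested, 1 was lower and none higher: Plod2, a lysyl hydroxylase that favours stable crosslinks, at -1.17 ± 0.23. Serpinh1, the collagen chaperone, had 549 ± 92.3 CPM against 429 ± 26.0 CPM alone.

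The list of TGF-beta genes and collagen regulators gave 6 higher and none lower of 21 with 393P in aggregates, with a median of 0.44. Tgfb1 rose from 39.7 ± 1.81 to 152 ± 31.0 CPM (SD, n = 3), a log2 change of 1.94 ± 0.20. The transcription factor genes Ets1 and Prrx1 rose by 1.57 ± 0.22 and 1.11 ± 0.16. At the fibril surface 3 of 11 genes rose and 2 fell; Postn, the matrix protein periostin, rose from 32.8 ± 3.46 to 371 ± 37.0 CPM, and Tnxb and Dcn fell by 2.02 ± 0.22 and 2.04 ± 0.30. Among degradation genes 2 rose and 2 fell of 9, with Fap, the fibroblast activation protein, at 3.52 ± 0.29, Ctsb at -0.58 ± 0.15 and Mmp3, a stromelysin, at -2.66 ± 0.70. Mrc2, an uptake receptor for collagen, was the 1 of 4 receptor genes that passed, at 0.60 ± 0.16. Of the other fibrillar collagens only Col27a1 was tested, at 1.04 ± 0.37 (edgeR adjusted p = 0.0708), and of 8 fibril-associated collagens 2 were tested and not called, Col16a1 at -0.65 ± 0.27 and Col20a1 at -0.46 ± 0.28.

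With 344SQ in aggregates, where no member and 5.84% of all genes were called, 2 of 10 cleavage and crosslinking genes rose, Tll1 by 2.29 ± 0.34 and Loxl1 by 0.79 ± 0.17, and none fell. Of the regulators 3 of 21 rose, Twist1 by 2.69 ± 0.37, Wwtr1 by 0.96 ± 0.19 and Prrx1 by 0.68 ± 0.16. Plod2 fell by 1.23 ± 0.23, the 1 call of 19 in its list, a share near that of all genes. At the fibril surface Tnc rose by 1.71 ± 0.30, and Tnxb, Fbln2 and Dcn fell, Tnxb by 2.30 ± 0.24. No degradation or receptor gene was called. The most abundant were Timp3 (0.53 ± 0.17) and the cathepsin gene Ctsb (-0.43 ± 0.15), and the receptor genes Mrc2 (0.36 ± 0.16) and Ddr2 (-0.30 ± 0.15). Set against 393P, where 1.94% of all genes were lower and 2.21% higher, 3 of 10 cleavage and crosslinking genes were lower with 344SQ and 1 higher, with Adamts2 at -1.49 ± 0.18, Bmp1 at -0.80 ± 0.17 and Loxl3 at -1.03 ± 0.24. Of the regulators 3 were lower, Ets1 at -1.94 ± 0.23, Tgfb1 at -1.41 ± 0.19 and Tgfbr1 at -0.99 ± 0.22, and so was Fap at -2.40 ± 0.25, the 1 degradation gene called. The fibril surface list went both ways, with 2 of 11 lower, Postn at -3.79 ± 0.20 and Fbln2 at -0.89 ± 0.16, and 3 higher, Prelp at 1.59 ± 0.37, Dpt at 2.10 ± 0.60 and Dcn at 1.07 ± 0.32. In the shRNA table no gene of any of the 8 lists passed (edgeR); Lox, for example, stood at 160.5 ± 57.8 CPM with shZEB1 and 61.5 ± 33.0 CPM with shCTL (SD, n = 3), with an adjusted p of 0.799.

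In the Boyden chamber, list counts are to be read against the 7.68% higher and 7.96% lower of all genes with 393P and the 7.43% and 7.44% with 344SQ. Hydroxylation, folding and export genes gave 5 lower and none higher of 19 with 393P, and 6 lower and 2 higher with 344SQ. P3h1 and Plod3, a prolyl and a lysyl hydroxylase, fell by 0.46 ± 0.10 and 0.36 ± 0.06 with 393P. P4ha2, a subunit of prolyl 4-hydroxylase, rose by 0.90 ± 0.08 with 344SQ, from 31.5 ± 3.63 to 58.8 ± 1.15 CPM (SD, n = 5). At the fibril surface 6 of 13 genes fell with 393P and 5 with 344SQ, and none rose. Fmod, the small proteoglycan fibromodulin, went from 46.5 ± 1.83 CPM alone to 30.8 ± 2.37 with 393P and 23.7 ± 2.48 with 344SQ, and Sparc, a collagen-binding matricellular protein, fell by 0.40 ± 0.06 and 0.43 ± 0.06.

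The protease genes Mmp13 and Mmp3 rose across the membrane. Mmp13, a collagenase, went from 4.49 ± 0.757 CPM alone to 10.7 ± 1.83 with 393P and 41.9 ± 2.78 with 344SQ (SD, n = 5), log2 changes of 1.25 ± 0.14 and 3.22 ± 0.12. Mmp3 rose by 1.67 ± 0.13 and 2.59 ± 0.13, and Timp3, an inhibitor of these proteases, fell by 0.58 ± 0.06 and 0.86 ± 0.06. In all, degradation genes gave 2 higher and 4 lower of 10 with 393P and 3 higher and 4 lower with 344SQ. The collagen receptor genes Itga1 and Ddr1 fell with both lines, Itga1 by 0.96 ± 0.11 and 1.15 ± 0.12. Cleavage and crosslinking genes gave 2 higher and 2 lower of 11 with each line, Tll1 and Adamts14 higher and Adamts2 and Lox lower. Regulators gave 5 higher and 4 lower of 23 with 393P and 6 and 4 with 344SQ; Creb3l1, a regulator of collagen secretion and transcription, fell by 0.92 ± 0.10 and 0.55 ± 0.10, and Tgfb3 by 0.45 ± 0.07 and 0.70 ± 0.08. Between the lines, Mmp13 and P4ha2 were higher with 344SQ by 1.97 ± 0.11 and 0.68 ± 0.08.

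In the joint fit for 393P, 10 of 23 regulators and 6 of 12 cleavage and crosslinking genes had a higher log2 change in aggregates than across the membrane, as did 5.32% of all genes. None of the regulators and 2 of the cleavage and crosslinking genes, Lox and Adamts3, had a lower one. These lists had medians of 0.76 and 0.90 against 0.03 over all genes. Tgfb1 differed by 1.98 ± 0.20 and Adamts2 by 1.48 ± 0.15. Degradation genes gave 4 higher and 2 lower of 10, with Fap at 3.02 ± 0.40 and Timp3 at 0.77 ± 0.16 against Mmp3 at -4.28 ± 0.64 and Mmp13 at -3.00 ± 0.52. For 344SQ the regulators gave 3 higher of 23, led by Twist1 at 2.88 ± 0.38.

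Genes whose log2 CPM followed a member most closely were named as a description, without a test. Over the 9 aggregate libraries, among 5155 genes with a mean of at least 20 CPM, the closest to Col1a1 were Col5a1 (Pearson r = 0.948), Col5a2 (0.946), Hic1 (0.941), Heatr5a (0.928) and C1qtnf6 (0.921). The closest to Col5a3 were Mical1 (0.989), Col15a1 (0.983), Notch3 (0.979), Postn (0.977) and Pdgfrb (0.973). Over the 15 Boyden replicates, among 6671 genes, the closest to Col1a1 were Ddr1 (0.967), Col6a1 (0.966), Tmem151a (0.961), Myrf (0.957) and Adamts2 (0.950), and the closest to Col5a3, which has few counts there, were Tbcel (0.824), Zfp369 (0.802), Gnl2 (0.791), Mafg (0.762) and Daam1 (0.757). The points share their groups, so these values include the group differences.

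All members together took 0.439% ± 0.125 of the counts in aggregates of CAFs alone, 0.380% ± 0.0358 with 344SQ and 0.617% ± 0.0960 with 393P (SD, n = 3). In the Boyden chamber they took 0.784% ± 0.0284, 0.627% ± 0.0292 and 0.636% ± 0.0169 (SD, n = 5). Within the members' counts, Col1a2 made up 50.7% ± 0.757 in Boyden CAFs alone and 30.3% ± 3.66 in aggregates of CAFs alone. Col5a3 made up 3.69% ± 0.618 in aggregates with 393P, and 0.625% ± 0.197 in those of CAFs alone.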

How the data were processed

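Per the labels' protocols, CAFs were enriched by sorting and lysed, and libraries were made with sonication and adapter ligation. The deposited values are raw counts per gene and library. Per the submitters' processing notes, the authors used STAR and HTSeq on mm10; versions, annotation release, strand setting and filters are not stated in the sources used here. Gene positions and exon lengths came from GENCODE M21 (GRCm38, the assembly of mm10); 40606 of 48440 identifiers matched with their version.

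The members and gene lists were chosen with earlier results of these data known. Samples were grouped by their labels. Each Boyden replicate is the sum of its 3 technical libraries. Each table was fitted on its own in edgeR 4.0.16 (R 4.3.3) with filterByExpr, TMM scaling, a mean per group and 2-sided quasi-likelihood tests. P-values were adjusted by Benjamini-Hochberg over the genes tested, with calls at an adjusted p under 0.05. The SE of a log2 change was derived from the test, as the size of the change divided by the square root of its F statistic. The aggregate and Boyden tables were fitted jointly to test differences between formats. Chain ratios were tested by exact permutation over samples, adjusted over 38 comparisons. Genes named were all members, per list and comparison up to 3 genes of smallest p past the threshold (or up to 2 of highest level where none passed), and the 5 genes closest to Col1a1 and to Col5a3; other list genes, among them Adamts2, Lox and Serpinh1 in aggregates and Creb3l1, Tgfb3 and Sparc in the Boyden chamber, were added for their role after their values were seen. The text gives levels as TMM-scaled CPM; marker sums are scaled by total counts. Alternatives were RLE size factors, no filter, DESeq2 1.42.0, only the groups compared, the replicate number as a block, each replicate left out, rRNA-like and mitochondrial genes removed, a carcinoma marker covariate, and the first technical library alone. The procedure was tested on simulated data. Figures used matplotlib 3.10.9. Promoter sequences are from RefSeq (GRCm38.p6), which held 5 of the 8 members; Col1a1, Col5a2 and Col12a1 were not matched, and the Col1a2 window, which lies inside the GENCODE gene, is not printed. No 2 libraries of the same group held identical counts, and pairs from different groups were not compared.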

Additional observations from a re-analysis of the deposited data

Results flagged for a closer look

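In 42 groups of 5 Boyden values (each member's CPM and each chain ratio per group), 1 held a value far from the other 4: the Col3a1/Col1a1 count ratio of 393P replicate 5 was 0.975, against 0.900 to 0.921 in the other 4. Chance flags about 1 in 20 such groups. The change with 393P differed between aggregates and the Boyden chamber, by an interaction test in edgeR, for Col5a3 (log2 difference 3.57), Col1a1 (1.37), Col5a1 (1.10), Col5a2 (1.04) and Col3a1 (1.02). With 344SQ it differed for Col3a1 (0.87). Format and library batch cannot be told apart. The interaction test used a spread estimate shared by both formats, below that of the aggregates fitted alone, so its p-values may be too small.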

How the results depend on the processing

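Of the 26 member changes that were called, none reversed under any alternative and 433 of 458 alternative values kept the call; the other 25 kept the direction and lost it. Over all member changes, 38 of 1111 alternative values reversed, all of changes that had not been called, and 7 gained a call.

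The count of members called changed with 6 kinds of alternative. With the carcinoma marker covariate, 1 member was called for 393P in aggregates (4 as reported), 1 for 344SQ in aggregates (0 as reported) and 1 between the lines in the Boyden chamber (2 as reported). In aggregates, the marker sums of CAFs alone did not overlap those with 393P or with 344SQ. From the first technical library alone the Boyden counts were 3 with 393P and 2 with 344SQ (5 each as reported) and 0 between the lines. Between the lines in the Boyden chamber, 1 member was called with only the groups compared and 1 with the replicate block. DESeq2 called 2 members for the 344SQ effect between formats (1 as reported) and 5 between the lines in aggregates (4 as reported). Leaving out each replicate gave 0 to 3 members between the lines in the Boyden chamber, 0 or 1 for the 344SQ effect between formats, 4 or 5 for 393P in aggregates and 344SQ in the Boyden chamber, and 5 or 6 for the 393P effect between formats. The replicate block lost the call of Col12a1 between the lines in the Boyden chamber (0.25, adjusted p = 0.0514) and changed no other member's call. The numbers were not taken to pair the samples, since the labels do not say that they mark a shared batch or isolate. Deviations of same-numbered replicates correlated at -0.03 to 0.07 in the aggregates, -0.30 to 0.26 in the Boyden table and -0.03 to 0.13 in the shRNA table. For differently numbered replicates the correlations were -0.08 to 0.08, -0.37 to 0.41 and -0.15 to 0.08.

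Reversed values, all of changes not called, were as follows. With the covariate they were -0.39 for Col1a2, -0.12 for Col3a1 and 0.34 for Col12a1 with 393P in aggregates, and 0.015 for Col3a1 with shZEB1. Without a filter they were 0.000306 for Col5a1 with 344SQ in aggregates and -0.022 for Col5a2 with 344SQ in the Boyden chamber. From the first technical library they were -0.27 for Col5a3 with 344SQ and 0.031 for Col5a1 between the lines in the Boyden chamber. Leaving out each replicate, the lowest and highest were -0.095 and 0.15 for Col1a2 and -0.67 and 0.31 for Col12a1 with 393P in aggregates; -0.18 and 0.11 for Col1a1, -0.33 and 0.36 for Col3a1, -0.070 and 0.013 for Col5a1 and -0.064 and 0.26 for Col5a2 with 344SQ in aggregates; and -0.74 and 0.16 for Col12a1 between the lines there. With shZEB1 they were -0.33 and 0.20 for Col3a1 and -0.34 and 0.34 for Col5a2. In the Boyden chamber they were -0.034 and 0.049 for Col5a2 with 344SQ and -0.024 and 0.13 for Col11a1 between the lines. For the effects between formats they were -0.051 and 0.85 for Col12a1 with 393P, and with 344SQ -0.24 and 0.019 for Col1a2, -0.029 and 0.33 for Col5a2, -0.15 and 0.27 for Col5a3 and -0.67 and 0.15 for Col12a1. Log2 ratios gave -0.011 and 0.086 for Col1a1/Col1a2 (344SQ, Boyden), -0.10 and 0.27 for Col3a1/Col1a1 (344SQ, aggregates), -0.16 and 0.062 for Col5a2/Col5a1 (between the lines, aggregates), -0.82 and 0.34 for Col5a3/Col5a1 (shZEB1), -0.18 and 0.036 for Col5a3/Col5a1 (393P, Boyden), -0.85 and 0.38 for Col12a1/Col1a1 (344SQ, aggregates) and -0.045 and 0.062 for Col12a1/Col1a1 (344SQ, Boyden).

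Counts of all genes called that differed by more than 1.5 times were 308 (393P) and 250 (344SQ) in aggregates with the covariate, 853 and 467 as reported, and 284 for 344SQ without CAFs-alone replicate 3. With shZEB1 they were 90 without a filter, 26 with DESeq2 and 1 with the replicate block, against 0. From the first technical library they were 609, 500 and 73 in the Boyden chamber (2195, 2087 and 545 as reported) and 818 and 364 for the effects between formats (1365 and 719). The cause of these shifts was not tested. Counts were few for Col11a1 in the aggregates, at 0 to 4 per library, and for Col5a3 in the Boyden chamber, at 30 to 77 per replicate, which limits the precision of their values.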
